A study of Homo sapiens with 4 samples.

Results

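The TRIM genes encode a large family of ubiquitin ligases, and 73 of them were found in these data by their symbols (TRIM, a number and at most 1 further letter). Of these, 48 were in the table of counts, among 15218 genes, and 25 more were listed only in the table of TPM, among 20263. RNA sequencing compared 2 FOXP4 KO libraries with 2 control libraries of 293T cells, a human line of embryonic kidney origin in which SV40 large T antigen is expressed. FOXP4 is a forkhead transcription factor, and the KO cells are described as a CRISPR-Cas9 knockout in the results of the study, as FOXP4-shRNA cells selected with puromycin in its methods, and as a knock-down in the sample labels. Control cells are wild type for FOXP4 by the text of the study and are labelled only as controls, and whether they carried a control virus is not known here. The KO titles share 1 KO number, so both KO libraries were read as the same line, and nothing says that the libraries of a group came from separate cultures. The p-values therefore reflect no more than how these libraries vary, possibly for technical reasons alone. In bulk RNA, fewer cells that express a gene and less RNA per cell cannot be told apart.

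A TRIM protein is built from a RING domain, 1 or more B-boxes and a coiled coil. The RING domain recruits an E2 enzyme that carries ubiquitin, and the coiled coil pairs the protein with itself. The end of the protein that follows sorts the family into classes, and it usually binds the target. The PRY-SPRY class holds antiviral proteins such as TRIM5 and TRIM21, the PHD-bromodomain class holds chromatin repressors such as TRIM28, and the COS class binds microtubules. Several members are induced by interferon.

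Libraries held 36393224 to 43057305 counts, and FOXP4 itself had 713 and 886 counts in FOXP4 KO libraries 1 and 2, against 2562 and 2463 in control libraries 1 and 2 (log2 fold change −1.78, edgeR adjusted p = 0.0038). Counts were tested with edgeR's quasi-likelihood test, with p-values adjusted by Benjamini and Hochberg over 14620 genes and a threshold of 0.05. Of 6 markers of the embryonic kidney, SIX2 and SALL1 had 27.4 TPM or more in each library. WT1 had 5.01 to 9.07 TPM, PAX2 1.46 to 4.06 TPM and LHX1 1.43 to 2.05 TPM. PAX8 was at 0 in both KO libraries and at 0.052 and 0.023 TPM in the control libraries. The sum of the 6 was 68.3 and 79.6 TPM in the KO libraries, against 85.1 and 87.5 TPM in the controls. Of the 5 that were tested, 0 passed. Of 6 markers of other cells, PTPRC, CD3E and HBB of blood were at 0 in both KO libraries and at 0.0613 TPM or less in the controls. ALB was above 0 TPM in both KO libraries and in control library 1, and PECAM1 only in the KO libraries, and neither was tested. COL1A1 had 11.4 and 7.06 TPM in the KO libraries, against 5.66 and 7.25 TPM in the controls. Its log2 fold change of 0.174 did not pass (edgeR adjusted p = 0.501). The sum of these 6 was 11.47 and 7.155 TPM in the KO libraries, against 5.914 and 7.33 TPM in the controls. Of 4 epithelial markers, EPCAM and CDH1 rose, with log2 fold changes of 3.56 and 2.50 (edgeR adjusted p = 0.0023 and 0.0081). KRT8 and KRT18 did not pass, at 0.52 and −0.026 (edgeR adjusted p = 0.20 and 0.91). The summed level of the 4, most of it from KRT8 and KRT18, was 274.6 and 266.4 TPM in the KO libraries, against 252.1 and 171.4 TPM in the controls. Of 4 neuronal markers, NEFM and INA rose, NEFL did not pass and STMN2 was at 0 in both KO libraries, with a sum of 222.9 and 244.9 TPM in the KO libraries, against 99.9 and 76.3 TPM in the controls. The part of these markers in the results on TRIM genes was not tested.

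Among genes with a TRIM symbol, more were called higher than lower in FOXP4 KO cells, and all of the large calls were rises. Of family members under other symbols, given below, MID1 fell and MID2 rose, while PML did not pass. The log2 fold changes of MID1 and MID2 were −1.91 and 0.70 (edgeR adjusted p = 0.0011 and 0.023). Of 47 tested members, 10 were higher, 5 lower and 32 not called, while 13.8% of all tested genes were higher and 12.1% lower. The members' shares were 21.3% and 10.6%. Called or not, log2 fold changes were above 0 in 26 members and below 0 in 21, against 7420 and 7200 of all tested genes. A log2 fold change of at least 1 was reached by 7 of the higher members (TRIM54, TRIM46, TRIM7, TRIM17, TRIM47, TRIM73 and TRIM25) and by 0 of the lower ones, the lowest value of any member being −0.98 (TRIM67, not called), against 6.96% of all tested genes higher and 2.99% lower by that measure. The median log2 fold change of the members was 0.064, and that of all tested genes was 0.0085. TRIM genes together took 2388 and 2518 CPM in the KO libraries, against 2669 and 2596 CPM in the controls. Both KO libraries lay above both control libraries in 16 members and below them in 15, against 35.5% and 33.2% of all tested genes, so that separation of the libraries alone was no rarer outside the family. With upper-quartile scaling 10 members were higher and 3 lower, and over all genes 2383 were higher and 1368 lower, against 2013 and 1765 with the TMM scaling used here. With 1 library left out, 4 to 8 members were higher and 0 to 4 lower, the fewest without FOXP4 KO replicate 2 (4 and 0) and without FOXP4 KO replicate 1 (6 and 0), and without control replicate 1 there were 8 and 2.

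**Figure D1:**
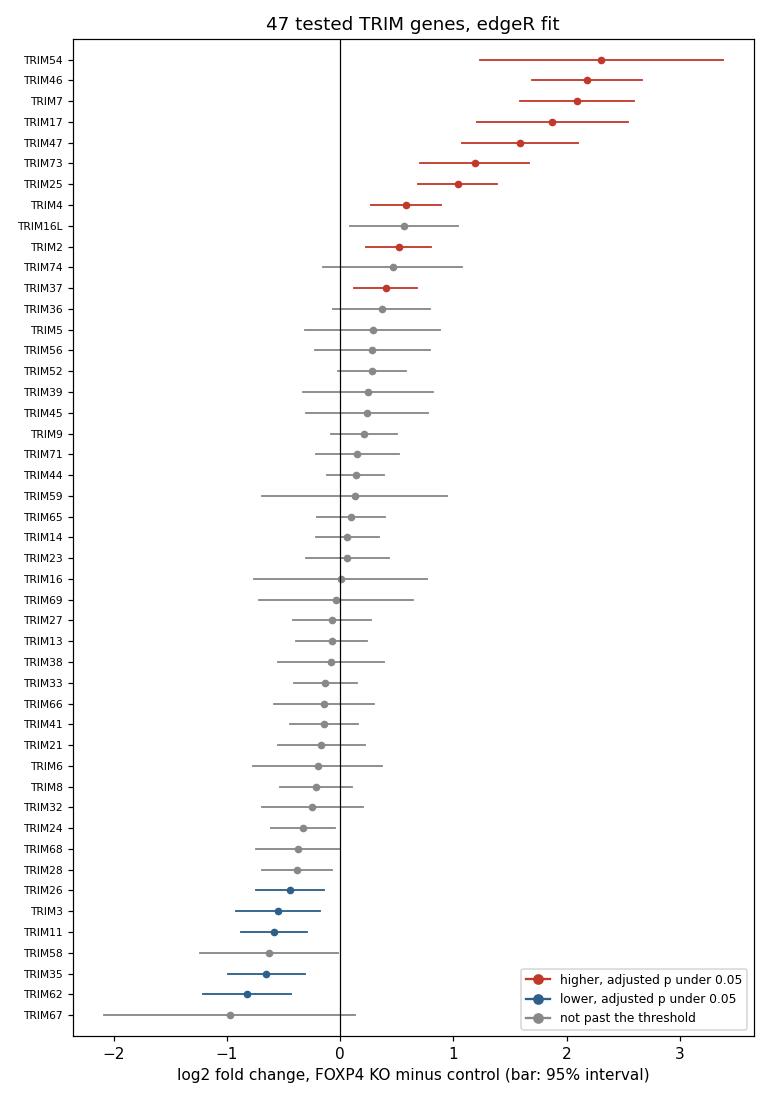
Log2 fold change (FOXP4 KO minus control) of the 47 tested TRIM genes, with the 95% interval as a bar. The 10 genes past the threshold on the right reach 2.31 (TRIM54), the 5 on the left reach −0.82 (TRIM62), and the 32 grey genes did not pass.

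TRIM46 and TRIM7 had the lowest p-values of the tested genes with a TRIM symbol. TRIM46 is known from rodent neurons, where it organizes parallel microtubules at the start of the axon. It had 563 and 657 counts in FOXP4 KO libraries 1 and 2, against 109 and 141 in control libraries 1 and 2. Normalized for library size this was 14.4 ± 1.88 CPM in KO cells and 3.17 ± 0.134 CPM in control cells (SD, n = 2 each). Its log2 fold change was 2.18 (standard error, SE, 0.200, edgeR adjusted p = 0.0027), a 4.53-fold rise, and it stayed between 2.04 and 2.31 with any 1 library left out. On chromosome 1 it occupies 155173787 to 155184971 of the forward strand (GRCh38, GENCODE v29), and the 53 tested genes within 1 Mb of it had a median log2 fold change of 0.19. Of these 53 genes, 8 were higher and 1 lower, where 13.8% and 12.1% of all tested genes were. MUC1, a membrane mucin of epithelial cells, was among the higher ones, with a log2 fold change of 1.02 (edgeR adjusted p = 0.030).

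TRIM7 binds glycogenin, the protein that primes glycogen. It had 368 and 340 counts in the KO libraries, against 67 and 87 in the control libraries. The groups did not overlap, at 8.33 ± 0.281 CPM in KO cells and 1.95 ± 0.088 CPM in control cells (SD, n = 2 each). This was a log2 difference of 2.09 (SE 0.208, edgeR adjusted p = 0.0034), or 2.02 to 2.13 with 1 library left out. It lies on the reverse strand of chromosome 5 from 181193924 to 181205293, next to TRIM41 and TRIM52.

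TRIM25, also called estrogen-responsive finger protein, attaches ubiquitin in the RIG-I pathway that senses viral RNA, and was the most abundant of the members with a large rise. It had 4329 and 4611 counts in the KO libraries, against 1619 and 2454 in the control libraries. The control libraries differed, at 45.7 and 56.8 CPM, yet both lay below the KO libraries at 100.4 and 110.3 CPM. The log2 fold change was 1.04 (SE 0.144, edgeR adjusted p = 0.0070), and lay between 0.87 and 1.2 when 1 library was left out. On the reverse strand of chromosome 17, from 56836387 to 56914080, it overlaps DGKE on the opposite strand, and no source used here says whether counting used the strand. Without strand, reads of such a pair cannot be told apart, and DGKE did not pass, with a log2 fold change of 0.41 (edgeR adjusted p = 0.075). C17orf67 overlaps TRIM25 on the same strand, and did not pass either, with a log2 fold change of 0.19 (edgeR adjusted p = 0.60). Of the stretches of 50 bases in annotated TRIM25 transcripts, 0.865% also occur in C17orf67.

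The promoters of these 3 genes are shown because they are the pair with the lowest p-values and the most abundant member with a large rise. Each run gives 250 bases before the RefSeq start of transcription and 50 bases from it (GRCh38.p14, 5′ to 3′ along the gene), and capitals mark the 50 bases from the start onward. They lie at chr1:155173599-155173898, forward strand for TRIM46, at chr5:181205147-181205446, reverse strand for TRIM7 and at chr17:56914000-56914299, reverse strand for TRIM25.
TRIM46: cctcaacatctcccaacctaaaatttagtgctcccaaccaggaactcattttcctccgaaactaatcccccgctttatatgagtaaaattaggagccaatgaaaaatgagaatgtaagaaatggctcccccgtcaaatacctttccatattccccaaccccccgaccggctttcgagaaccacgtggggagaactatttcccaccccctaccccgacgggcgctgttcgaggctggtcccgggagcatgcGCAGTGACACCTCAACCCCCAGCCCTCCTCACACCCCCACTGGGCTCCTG
TRIM7: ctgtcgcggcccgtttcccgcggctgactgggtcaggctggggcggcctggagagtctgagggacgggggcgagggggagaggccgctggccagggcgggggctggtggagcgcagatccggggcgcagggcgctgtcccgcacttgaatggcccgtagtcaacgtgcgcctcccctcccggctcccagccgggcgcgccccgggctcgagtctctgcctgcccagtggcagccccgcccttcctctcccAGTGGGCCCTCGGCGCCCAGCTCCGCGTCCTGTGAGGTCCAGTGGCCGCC
TRIM25: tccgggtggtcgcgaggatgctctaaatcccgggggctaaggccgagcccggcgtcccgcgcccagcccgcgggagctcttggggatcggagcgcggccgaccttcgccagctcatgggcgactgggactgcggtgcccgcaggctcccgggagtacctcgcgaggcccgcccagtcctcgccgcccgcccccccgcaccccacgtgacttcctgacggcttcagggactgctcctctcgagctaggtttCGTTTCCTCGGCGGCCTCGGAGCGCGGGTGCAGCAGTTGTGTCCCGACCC
The windows differ in composition. TRIM7 and TRIM25 have 75.7% and 72.3% G and C with 30 and 37 CpG pairs, while TRIM46 has 54.0% and 13. The forkhead motif TGTTTAC, searched on both strands, was in 0 of 56 TRIM promoters of the table and in 3.42% of all 35116, which says only that these letters are not in these windows. It was in 0 of the 37 promoters that belong to tested members.

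TRIM47, TRIM17, TRIM73 and TRIM54 made up the rest of the large rises. TRIM47, a PRY-SPRY ligase, had 564 and 655 counts in the KO libraries, against 189 and 182 in the control libraries. Its log2 fold change was 1.59 (SE 0.212, edgeR adjusted p = 0.0065), and it passed with any 1 library left out. TRIM17, a PRY-SPRY ligase known from apoptosis of mouse neurons, had 181 and 204 counts in the KO libraries, against 51 and 45 in the controls. It rose by 1.87 on the log2 scale (SE 0.276, edgeR adjusted p = 0.0080), and without FOXP4 KO replicate 2 it was 1.76 with an edgeR adjusted p of 0.052. In both genes the KO libraries lay above the control libraries by far more than libraries of a group differed.

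TRIM73 had 731 and 928 counts in the KO libraries, against 324 and 348 in the control libraries. Its log2 fold change was 1.19 (SE 0.199, edgeR adjusted p = 0.011), and 0.98 with an adjusted p of 0.062 without FOXP4 KO replicate 2. Its copy TRIM74 had 147 and 127 counts in the KO libraries, against 93 and 89 in the controls, with a log2 fold change of 0.46 that did not pass (edgeR adjusted p = 0.22). Of the stretches of 50 bases in annotated TRIM74 transcripts, 91.7% also occur in TRIM73, and 23.9% of those of TRIM73 occur in TRIM74. The values of both are uncertain for that reason, since the counting could divide shared reads between them.

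TRIM54, known as MURF3, binds microtubules and the sarcomere in striated muscle. It had 68 and 85 counts in the KO libraries, against 18 and 10 in the control libraries, the lowest counts of any called member. The log2 fold change was 2.31 (SE 0.443, edgeR adjusted p = 0.016). UCN, which it overlaps on the opposite strand of chromosome 2, had a log2 fold change of −0.50 that did not pass (edgeR adjusted p = 0.20). Leaving out control replicate 1 gave TRIM54 a value of 2.92, leaving out control replicate 2 gave 1.81, and without FOXP4 KO replicate 1 or 2 the adjusted p was 0.057 and 0.081. None of 4 markers of skeletal muscle rose, and their sum was 1.53 and 2.27 TPM in the KO libraries, against 4.78 and 2.85 TPM in the controls. MYH7 was at 0 in both KO libraries, against 0 and 0.016 TPM in the controls, and CKM had 0.140 and 0.278 TPM in the KO libraries, against 0.223 and 0.306 TPM in the controls. DES, the intermediate filament of muscle, fell to 0.127 and 0.0422 TPM in the KO libraries, against 0.470 and 0.433 TPM in the controls. The relatives TRIM55 and TRIM63 were at or below 0.0778 TPM in every library.

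**Figure D2:**
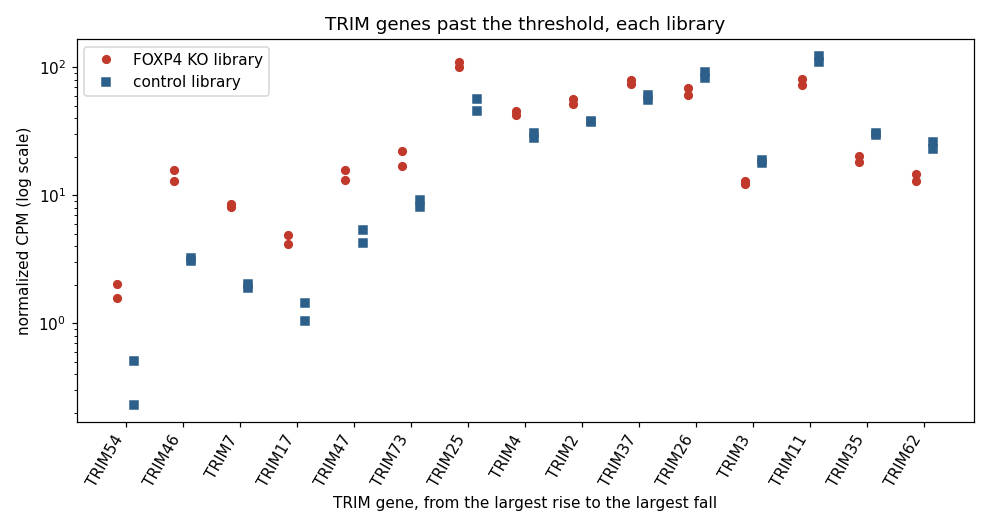
Normalized CPM (log scale) of the 15 TRIM genes past the threshold, from the largest rise to the largest fall, with a point for each FOXP4 KO library and a square for each control library. In all 15 the KO libraries do not overlap the control libraries, which largely follows from choosing them by their p-value. Over all tested genes both KO libraries lay above both controls in 35.5% and below them in 33.2%.

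Smaller rises were found in TRIM4, TRIM2 and TRIM37. TRIM4, another ligase of the RIG-I pathway, had 1972 and 1774 counts in the KO libraries, against 1094 and 1209 in the controls, a log2 fold change of 0.58 (SE 0.128, edgeR adjusted p = 0.023). It passed only without control replicate 1 among the fits with 1 library left out, with a highest adjusted p of 0.13, and limma-trend on filtered TPM with a pseudocount of 1 and of 0.1 gave adjusted p-values of 0.052 and 0.053. TRIM2, an NHL ligase of neurons known in mice to act on neurofilament light, had 2218 and 2365 counts in the KO libraries, against 1327 and 1639 in the controls. It rose by 0.52 on the log2 scale (edgeR adjusted p = 0.025), and the adjusted p was 0.053 to 0.16 when 1 library was left out. Limma-trend on filtered TPM with a pseudocount of 1 and of 0.1 gave TRIM2 lower log2 fold changes of 0.30 and 0.32, which did not pass (adjusted p = 0.13 in both). TRIM2 lies on chromosome 4, and of the 9 tested genes within 1 Mb of it 6 were higher and 0 lower, while 13.8% of all tested genes were higher and 12.1% lower. The median of these 9 genes, 0.89, exceeded the value of TRIM2. NEFL, the gene of that neurofilament, had a log2 fold change of 0.26 that did not pass (edgeR adjusted p = 0.25). TRIM37, a MATH-domain ligase that limits the building of centrosomes, had 3183 and 3310 counts in the KO libraries, against 1963 and 2607 in the controls. Its log2 fold change was 0.40 (edgeR adjusted p = 0.048), and with 1 library left out the adjusted p was 0.059 to 0.22. With DESeq2's size factors in the same test (0.052) and with edgeR's exact test (0.053) it did not pass. PPM1E, which it overlaps, had a log2 fold change of 0.25 (edgeR adjusted p = 0.22). Of the 26 tested neighbors of TRIM37 on chromosome 17, 7 were higher and 0 lower. Beside TRIM4, 4 of 58 tested neighbors were higher and 9 lower.

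The 5 falls were modest, with log2 fold changes from −0.82 to −0.44. TRIM62, a PRY-SPRY ligase linked to the polarity of breast epithelium, had 558 and 615 counts in the KO libraries, against 811 and 1121 in the controls, and its log2 fold change was −0.82 (SE 0.160, edgeR adjusted p = 0.016). TRIM35, which binds pyruvate kinase M2, had 781 and 853 counts in the KO libraries, against 1059 and 1322 in the controls, with a log2 fold change of −0.65 (edgeR adjusted p = 0.022). Both genes kept their calls without either control library and lost them without either KO library, with adjusted p-values up to 0.098 and 0.13. TRIM11, a ligase of protein quality control, had 3165 and 3416 counts in the KO libraries, against 4334 and 4756 in the controls, a log2 fold change of −0.58 (edgeR adjusted p = 0.019). TRIM3, an NHL ligase known from rodent neurons, had 531 and 537 counts in the KO libraries, against 631 and 816 in the controls, a log2 fold change of −0.54 (edgeR adjusted p = 0.045). TRIM26, a PRY-SPRY ligase encoded among the genes of the major histocompatibility complex, had 2618 and 2885 counts in the KO libraries, against 3288 and 3601 in the controls, a log2 fold change of −0.44 (edgeR adjusted p = 0.046). With 1 library left out, TRIM11 and TRIM26 passed only without control replicate 2, and TRIM3 in none of the 4 fits, with highest adjusted p-values of 0.11, 0.23 and 0.21. TRIM3 also missed the threshold with edgeR's exact test (adjusted p = 0.054), without a filter on low counts (0.0503) and with upper-quartile scaling (0.068), and TRIM26 with upper-quartile scaling (0.070).

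**Figure D3:**
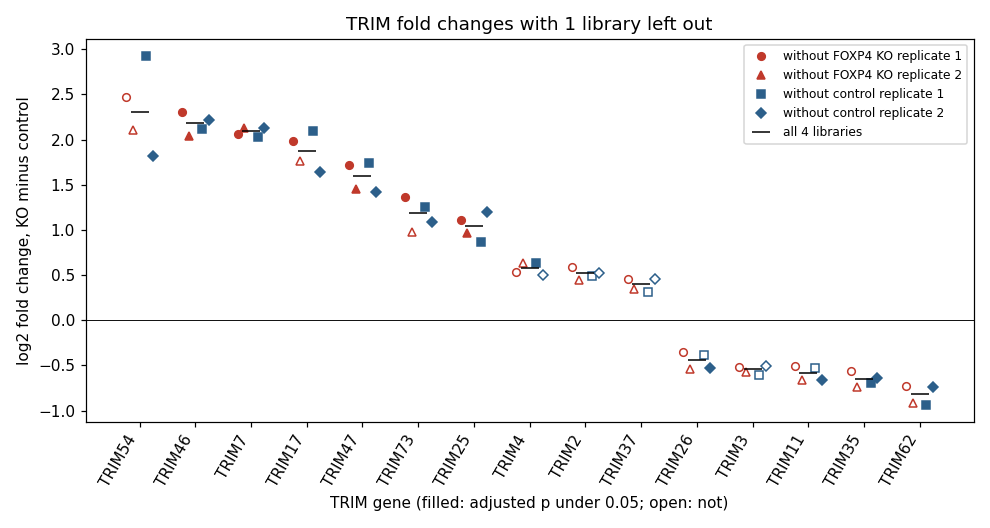
Log2 fold change (FOXP4 KO minus control) of the 15 TRIM genes with all 4 libraries (black bar) and with each library left out in turn, filled where the adjusted p was under 0.05. TRIM46, TRIM7, TRIM47 and TRIM25 stay filled in all 4 fits, and the signs hold in every fit.

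Levels within the family spanned several orders of magnitude, and the most abundant members did not pass the test or fell. TPM, which takes the length of the gene into account, is used here to compare genes. TRIM28, also called KAP1, is the corepressor that KRAB zinc finger proteins bring to DNA, and it had 531.7 and 547.8 TPM in the KO libraries, against 749.4 and 713.8 TPM in the controls. The KO columns of the TPM table could not be matched to replicate numbers. Its counts, 31486 and 32324 in KO libraries 1 and 2 against 36792 and 39661 in control libraries 1 and 2, did not overlap between the groups. This gave a log2 fold change of −0.38 (95% interval −0.69 to −0.07, edgeR adjusted p = 0.076). It passed with DESeq2 (adjusted p = 0.015), with edgeR's exact test (adjusted p = 0.0499) and with limma-trend on filtered TPM with a pseudocount of 1 and of 0.1 (adjusted p = 0.046 and 0.047), so that its call depends on the tool and the table. TRIM28 took 30.6% and 30.7% of all TRIM counts in the KO libraries, against 38.9% and 35.4% in the controls.

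The next members by TPM, at a mean of 83.9 to 56.0 TPM over both groups, were TRIM27, TRIM65, TRIM41, TRIM26 and TRIM11. TRIM27, first known as the RET finger protein, had 72.9 and 88.7 TPM in the KO libraries, against 81.3 and 92.7 TPM in the controls. TRIM65, which acts on the RNA sensor MDA5, had 72.9 and 75.7 TPM in the KO libraries, against 64.1 and 80.7 TPM in the controls. TRIM41, a PRY-SPRY ligase, had 53.5 and 59.8 TPM in the KO libraries, against 56.2 and 76.3 TPM in the controls. These 3 genes overlap between the groups and with each other, and the order among them lies within the spread. Their log2 fold changes were −0.073 (95% interval −0.42 to 0.27), 0.096 (−0.20 to 0.39) and −0.14 (−0.44 to 0.15). Of the 7 members with a large rise, 6 had a control level under the median of the tested members, 14.5 TPM, and TRIM25 was the exception at 18.5 TPM. These 7 were chosen by their ratio to the control level, and that choice itself favors low control levels. The matching share among all tested genes was not worked out.

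**Figure D4:**
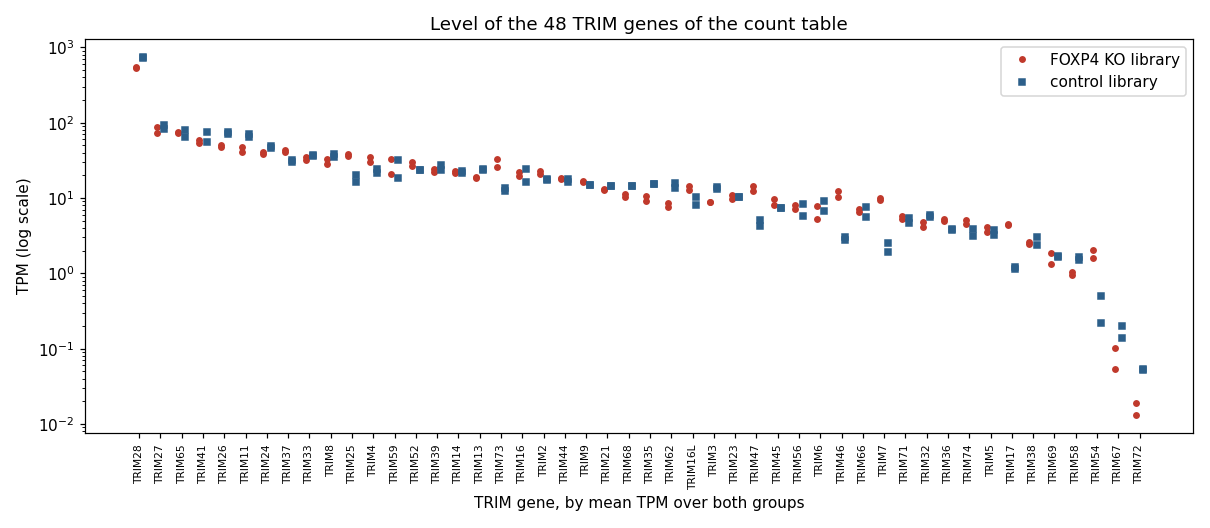
TPM (log scale) of the 48 TRIM genes of the count table, in order of the mean over both groups, with a point for each FOXP4 KO library and a square for each control library. TRIM28 stands above all others at 531.7 to 749.4 TPM.

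Of 20 tested PRY-SPRY members, 5 were higher and 4 lower, where 13.8% and 12.1% of all tested genes were. Counted by TRIM symbols alone, the classes of microtubule-binding COS proteins gave TRIM46 and TRIM54 as higher and 0 as lower. TRIM9 was at 0.21, TRIM36 at 0.37 and TRIM67 at −0.98 on the log2 scale, none of which passed (edgeR adjusted p = 0.23, 0.17 and 0.16). TRIM67 had only 11 and 21 counts in the KO libraries, against 24 and 35 in the controls. The microtubule-binding MID1 and its relative MID2 were left out of these counts because of their symbols. MID1 was lower and MID2 higher, with log2 fold changes of −1.91 and 0.70 (edgeR adjusted p = 0.0011 and 0.023). The absence of a lower call in these classes therefore holds only for genes with a TRIM symbol. Of the 3 PHD-bromodomain members 0 passed edgeR's test and 2 had an unadjusted p under 0.05, while DESeq2 called TRIM28. All had negative values, with TRIM24 at −0.33, TRIM28 at −0.38 and TRIM33, a regulator of SMAD4, at −0.13. The 4 NHL members gave 1 higher, TRIM2, and 1 lower, TRIM3, while TRIM32 had a log2 fold change of −0.24 and TRIM71, the let-7 target LIN41, of 0.15. Of the 5 tested members without a RING domain 0 passed edgeR's test, and 1 had an unadjusted p under 0.05. This was TRIM16L, which had 581 and 499 counts in the KO libraries, against 267 and 416 in the controls (log2 fold change 0.56, edgeR adjusted p = 0.083). It shares 39.4% of its stretches of 50 bases with TRIM16, so that the counts of both are uncertain.

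Of 7 tested members listed as induced by interferon, TRIM25 was higher, TRIM26 was lower and 5 did not pass, with a median log2 fold change of −0.036. Over all tested genes 13.8% were higher and 12.1% lower, so the calls in this list lie near those shares. PML (TRIM19) is not among the 7 and is given below. TRIM5, which restricts retroviral capsids, had 194 and 247 counts in the KO libraries, against 169 and 163 in the controls, and TRIM21, a cytosolic receptor for antibodies, had 515 and 517, against 493 and 576. Their log2 fold changes were 0.29 (95% interval −0.31 to 0.88) and −0.16 (−0.55 to 0.22). TRIM14 had a log2 fold change of 0.064, TRIM38 of −0.081 and TRIM69 of −0.036. TRIM22, a strongly induced member in many cells, was listed at 0.109 and 0.181 TPM in the KO libraries, against 0 and 0 in the controls, and was not in the count table.

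The core of the interferon-stimulated response element was searched as GAAA, 2 bases of any kind and GAAA again, on either strand and with overlaps allowed. It was in 10 of 56 TRIM promoters and in 3.57% of all 35116 promoters of the table. A match is a description of the letters and not a binding site. The cores shown are those of a member that rose, a member that fell and 3 interferon-induced members that did not pass. Capitals mark the core, with 7 bases on each side (RefSeq, GRCh38.p14, 5′ to 3′ along the gene), and TTTC in place of GAAA is the same core read on the other strand. The windows are TRIM2 at chr4:153151939-153151962, forward strand, TRIM5 at chr11:5685085-5685108, reverse strand, TRIM14 at chr9:98119232-98119255, reverse strand, TRIM21 at chr11:4393663-4393692, reverse strand and TRIM26 at chr6:30213578-30213607, reverse strand.
TRIM2: aaatagaGAAAAGGAAAtaagccg
TRIM5: gtttatcTTTCACTTTCctgccct
TRIM14: gccgaggTTTCGGTTTCccttggg
TRIM21: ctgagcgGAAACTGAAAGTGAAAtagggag
TRIM26: cgcctgaTTTCAGTTTCCATTTCgctgccc
In TRIM21 and TRIM26 the capitals hold 2 overlapping cores. The core of TRIM5 begins 27 bases before the start and that of TRIM14 26 bases before it, while that of TRIM21 begins 17 bases after it. The other promoters with a core were those of TRIM16, TRIM34, TRIM44, TRIM64C and TRIM69. Of the 8 tested members with a core, TRIM2 was higher, TRIM26 was lower and the others did not pass, with a median log2 fold change of 0.035. Of 29 tested members whose promoter held none, 8 were higher and 2 lower, with a median of 0.15, and the promoter of TRIM25 is among these. Over all tested genes 13.8% were higher and 12.1% lower. Of the 47 tested members, 37 had a promoter in this search, and the called TRIM4, TRIM11 and TRIM35 were not among them. Whether the core bears on the changes was not tested.

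Some neighboring members differed in direction or in their calls. TRIM11 and TRIM17 lie 1100 bases apart on the reverse strand of chromosome 1, from 228393673 to 228416861, where TRIM17 rose and TRIM11 fell. TRIM47 rose next to TRIM65 on chromosome 17, where 1760 bases separate them. TRIM7 rose beside TRIM41 and TRIM52 within 67.2 kb of chromosome 5, and TRIM52 had a log2 fold change of 0.28 (edgeR adjusted p = 0.14). In the cluster of 7 members on chromosome 11 from 4384897 to 6474459, 5 members were tested and TRIM3 was the only call. In the cluster of 6 on chromosome 6 from 30102897 to 30343729, TRIM26 and TRIM39 were tested, and the 4 others were at 0.127 TPM or less in every library. TRIM39 had 1204 and 757 counts in the KO libraries, against 753 and 757 in the controls. Its TPM did not show the high library, with 24.4 and 22.4 in the KO libraries, against 27.5 and 23.7 in the controls. It shares 26.9% of its stretches of 50 bases with the read-through gene TRIM39-RPP21, so that its count is uncertain.

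Of the 15 called members, 11 had the same sign as the median of the tested genes within 1 Mb, and the share among other genes was not worked out. For 6 of the 7 large rises that median lay between −0.16 and 0.19, and for TRIM7 it was 0.21. These 7 were chosen for their large changes, so lying above such a median follows from that choice. Whether the rises are local was not tested. The largest median beside a call was that of TRIM2, at 0.89, followed by that of TRIM37 at 0.31. TRIM36, with a log2 fold change of 0.37 that did not pass, lies on chromosome 5 among 11 tested neighbors with a median of 0.69. Of these 7 were higher, against 13.8% of all tested genes. Beside TRIM73, 2 of 20 tested neighbors were higher and 4 lower.

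**Figure D5:**
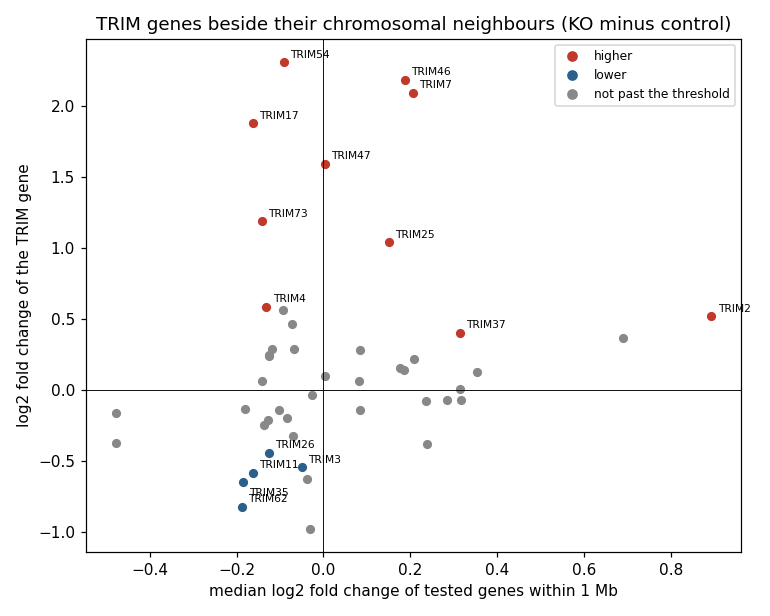
Log2 fold change of each tested TRIM gene against the median over tested genes lying up to 1 Mb away on either side, both KO minus control. TRIM2 lies at 0.89 on the horizontal axis, and the neighbors of the 7 large rises, chosen by their size, have medians between −0.16 and 0.21.

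The remaining tested members did not pass. TRIM8 (log2 fold change −0.21), TRIM6 (−0.20), TRIM66 (−0.14), TRIM23 (0.063), TRIM44 (0.14), TRIM45 (0.23) and TRIM56 (0.28) had edgeR adjusted p-values of at least 0.27. TRIM6 shares 25.8% of its stretches of 50 bases with the read-through gene TRIM6-TRIM34, and its count is uncertain. TRIM68, at −0.38, and TRIM58, at −0.63, had an unadjusted p under 0.05 and an edgeR adjusted p of 0.11 each. TRIM58 is known from red cell precursors and had 73 and 65 counts in the KO libraries, against 87 and 111 in the controls.

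Libraries of both groups differed widely in TRIM59, a membrane-anchored member, which had 2633 and 1556 counts in the KO libraries, against 1118 and 2520 in the controls. Its groups overlapped, and its log2 fold change of 0.13 had a 95% interval from −0.69 to 0.94. TRIM16 had 706 and 1024 counts in the KO libraries, against 518 and 1125 in the controls, with an interval of −0.76 to 0.77. Over the 47 members the median absolute log2 ratio was 0.15 between the KO libraries and 0.17 between the control libraries. Of the 32 members that did not pass, 21 had log2 fold changes within 0.25 of 0, and 5 had an unadjusted p under 0.05. Fold changes from the TPM table lay within 0.1 of those from the counts on the log2 scale in 37 of 47 members and more than 0.25 away in TRIM39 and TRIM13.

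The remaining members were barely transcribed. TRIM72, a muscle protein of membrane repair, had 3 and 4 counts in the KO libraries, against 8 and 10 in the controls, too few to be tested. Of the 25 members found only in the TPM table, 11 were listed at 0 in all 4 libraries and the highest value was 0.336 TPM, for TRIM34 in control library 1. That gene shares 83.1% of its stretches of 50 bases with other genes. The primate genes of chromosome 11 and chromosome 2, TRIM43, TRIM48, TRIM49, TRIM51, TRIM64, TRIM77 and their copies, were all at 0.0883 TPM or less. TRIM15, TRIM22 and TRIM75P were above 0 in both KO libraries and at 0 in both controls, each at 0.181 TPM or less, while 0 members showed the opposite. Such values lie near 0, and the share of all genes with either pattern was not worked out, so no difference between the groups is read from them. The count table holds only genes with at least 1 count in every library, so these members could not enter the test, and each of them was at 0 TPM in at least 1 library. The others, among them the epithelial TRIM29, TRIM31 and TRIM40 and the erythroid TRIM10, were at 0.127 TPM or less.

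Family members that carry other symbols, and partners of the TRIM proteins, were read from the same fit. MID1, a microtubule-binding ligase also known as TRIM18, fell, with 1831 and 1810 counts in the KO libraries, against 5522 and 7232 in the controls. The log2 fold change of −1.91 (SE 0.111, edgeR adjusted p = 0.0011) was a larger fall than that of any tested gene with a TRIM symbol. Its relative MID2, or TRIM1, rose, with 2170 and 2319 counts in the KO libraries, against 1017 and 1567 in the controls (log2 fold change 0.70, edgeR adjusted p = 0.023). PML, or TRIM19, the organizer of nuclear bodies, had a log2 fold change of −0.055 (edgeR adjusted p = 0.81).

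Of 12 E2 enzymes of the kinds TRIM ligases use, 6 were higher and 0 lower by edgeR, with a median log2 fold change of 0.30, against 13.8% higher and a median of 0.0085 over all tested genes. The 6 were UBE2D2, UBE2E1, UBE2E2, UBE2E3, UBE2K and UBE2V2, and at an unadjusted p under 0.05 UBE2V1 was lower as well (log2 fold change −0.37). UBE2E2 and UBE2V2 had the lowest p-values of the list, with log2 fold changes of 0.67 and 0.64 (edgeR adjusted p = 0.014 and 0.015). UBE2D3, a widely used E2, had a log2 fold change of −0.20 (edgeR adjusted p = 0.28). UBE2N, the partner of UBE2V2 in building ubiquitin chains that signal, gave a log2 fold change of −0.17 (edgeR adjusted p = 0.33).

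Among 20 partners of TRIM28 in gene silencing, 5 were lower and 1 higher, with a median of −0.11, against 12.1% lower and a median of 0.0085 over all tested genes. UHRF1, which guides maintenance methylation, and the chromatin remodeler CHD4 had log2 fold changes of −0.72 and −0.68 (edgeR adjusted p = 0.012 and 0.013). The histone methyltransferase SETDB1, which TRIM28 recruits, rose by 0.48 on the log2 scale (edgeR adjusted p = 0.030), and ATF7IP, the partner of SETDB1, had a log2 fold change of 0.25 that did not pass (edgeR adjusted p = 0.14).

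Of 19 tested genes of the RIG-I pathway, 4 were higher (IFIH1, IRF7, DDX58 and TAB1) and 3 lower (TMEM173, IKBKG and RIPK1), with a median log2 fold change of −0.072, against 13.8% higher, 12.1% lower and a median of 0.0085 over all tested genes. DDX58, the gene of RIG-I and the target of TRIM25 and TRIM4, had 397 and 380 counts in the KO libraries, against 122 and 190 in the controls, a log2 fold change of 1.22 (edgeR adjusted p = 0.012). IFIH1, the gene of MDA5 on which TRIM65 acts, had 735 and 798 counts in the KO libraries, against 34 and 72 in the controls, a log2 fold change of 3.77 (edgeR adjusted p = 0.0019). IRF7, a transcription factor of interferon genes, had 247 and 284 counts in the KO libraries, against 29 and 40 in the controls, and rose by 2.84 on the log2 scale (edgeR adjusted p = 0.0025). The adaptor gene MAVS had a log2 fold change of −0.15 (edgeR adjusted p = 0.44). TMEM173, the gene of STING in the neighboring DNA-sensing pathway, had 45 and 57 counts in the KO libraries, against 386 and 368 in the controls, a log2 fold change of −3.01 (edgeR adjusted p = 0.0025). IKBKG, the regulatory subunit of the kinase that releases NF-kB, had 579 and 630 counts in the KO libraries, against 1007 and 955 in the controls, a log2 fold change of −0.83 (edgeR adjusted p = 0.023).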

How the data were processed

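RNA of 2 FOXP4 KO and 2 control libraries of 293T cells was sequenced, and samples were grouped by their titles. The authors deposited raw counts per gene symbol and, in another table, TPM, which are scaled by gene length. No source used here names the aligner, the counter or the use of strand. Of builds, the submitters' processing notes name GRCm38 and mm10, both of mouse, although the identifiers are human. Counts were filtered with filterByExpr, scaled by TMM and tested with the quasi-likelihood test of edgeR 4.0.16 in R 4.3.3. Standard errors (SE) were obtained by dividing the absolute log2 fold change by the root of F, and 95% intervals use a t distribution with residual and prior degrees of freedom. The method was tested on simulated data. Genes were placed with GENCODE v29 (GRCh38), promoters came from RefSeq (GRCh38.p14, 56 of 73 members matched), and shared sequence was measured as stretches of 50 bases in annotated transcripts.

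The members and lists were chosen with earlier results of these data known. Full values are given for members past the threshold with a log2 fold change of at least 1 in size, the 6 tested members with the highest mean TPM, members at or near 0 TPM throughout 1 group and at 1 TPM or more throughout the other (0 were found) and, of each partner list, the 2 risers and 2 fallers of lowest p. Other members and genes are named by value, and which of these were described more fully was decided after their values were seen. Domain classes were written from general knowledge. Alternatives were DESeq2 1.42.0, limma-voom and limma-trend (limma 3.58.1, log2(TPM + 1) and log2(TPM + 0.1)), the exact test of edgeR, RLE and upper-quartile scaling, no filter or 1 CPM in 2 libraries, leaving out 1 library at a time, and a block for the replicate number.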

Additional observations from a re-analysis of the deposited data

How the results depend on the processing

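With upper-quartile scaling 3 TRIM genes were lower and the members' median log2 fold change was 0.14, and with a filter of 1 CPM the median was 0.083. Limma-trend on log2(TPM + 1) without a filter, which takes in the many genes at or near 0, called 1 TRIM gene higher, TRIM17, and 0 lower, with a median of 0.00, 349 genes higher and 297 lower over all genes, and a log2 fold change of −1.66 for FOXP4 (adjusted p = 0.071). With the replicate number as a block 9 TRIM genes were higher and 3 lower, TRIM37, TRIM3 and TRIM26 being lost. Deviations of libraries with the same number had a correlation of −0.0026 across genes, so no pairing was seen over the genes as a whole. Whether libraries with the same number share a batch was not tested. With 1 library left out, 4 to 8 TRIM genes were higher and 0 to 4 lower, their median was 0.024 to 0.092, 639 to 2013 genes were higher and 467 to 1614 lower over all genes, and FOXP4 lay at −1.97 to −1.61. In such fits the lone library is assumed to vary like those of the other group, and the cause of the lower counts was not tested. TRIM27 changed sign, to 0.0017 with upper-quartile scaling and to 0.082 without FOXP4 KO replicate 1 (range −0.25 to 0.082 with 1 library left out), and TRIM65 to −0.045 without control replicate 1 (range −0.045 to 0.21). Limma-trend on filtered TPM, with either pseudocount, called 8 TRIM genes higher and 6 lower. Apart from the TPM fit without a filter, TRIM46, TRIM7, TRIM47 and TRIM25 passed in all alternatives. Precision is limited by 2 libraries a group and, in TRIM54, by 10 to 85 counts.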
